A study of Mus musculus with 9 samples.

Results

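Aminoacyl-tRNA synthetases join each amino acid to its matching tRNA and so supply ribosomes with charged tRNA. The cytosol and the mitochondrion use largely separate sets of these enzymes, both encoded in the nucleus, with the mitochondrial gene usually marked by a 2 at the end of its symbol. Several cytosolic enzymes sit together in the multi-synthetase complex, and many cytosolic synthetase genes are known targets of ATF4, a transcription factor whose translation rises when amino acids run short or unfolded proteins build up.

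The genes described here were taken from the count table by symbol: a letter or letters for the amino acid followed by ars, with or without 1, 2, a or b at the end, and Eprs. The rule matched 38 rows with 37 symbols, since Kars has a second row, which held no reads and was set aside. All 37 genes passed the filter on low counts, which asked for a CPM (reads scaled to library depth) above 1 in 3 or more libraries, as did 11950 of the 53465 rows in all. Of the 37, 20 encode cytosolic enzymes and 17 encode mitochondrial enzymes. Gars and Kars are counted with the cytosolic set although each gene encodes both forms, Farsa and Farsb encode the subunits of a single cytosolic enzyme, and Eprs encodes a fused enzyme for glutamate and proline. The rule used symbols, not measured values, apart from the filter.

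RNA-Seq was performed on bone marrow derived macrophages (BMDMs) of male C57BL/6 mice, grown with CSF1 at 50 ng/ml, with 3 libraries in each of 3 groups. UNX macrophages were left without conditioned medium. CO-CM macrophages received medium conditioned by adventitial fibroblasts (CO-Fibs) from the pulmonary arteries of control calves, and PH-CM macrophages received medium from fibroblasts (PH-Fibs) of calves made pulmonary hypertensive by hypobaric hypoxia. Treatment is given as 16 h in one protocol label and as 24 h in another. The medium was conditioned by bovine cells and supplemented with serum, and the macrophages were murine. No group received fibroblast medium that had not been conditioned. In comparisons with UNX, fibroblast products therefore cannot be told apart from the change of medium itself. Each medium was a pool of fibroblast populations, so the 3 libraries of a group do not stand for separate calves. Whether 1 pool served all 3 libraries of a group is not stated. P-values therefore measure the spread between repeated cultures exposed to pooled medium, and not the spread between calves.

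Libraries held 62017933 to 84314201 counted reads in UNX, 68317274 to 73049365 in CO-CM and 63493877 to 66935070 in PH-CM. The 9 macrophage markers, Lyz2, Cd68 and Csf1r among them, were detected and summed to 12700 to 13200 CPM in UNX, 19000 to 19700 in CO-CM and 22100 to 23400 in PH-CM. Lyz2 made up most of each sum, with means of 7450, 12600 and 15000 CPM. The markers did not all rise: in CO-CM the means of Cd14 (318 in UNX, 171 in CO-CM), Itgam (109 and 89.7) and Fcgr1 (102 and 87.6) were lower. The 8 fibroblast markers summed to 201 to 254 CPM in UNX, 259 to 310 in CO-CM and 250 to 329 in PH-CM, and came mostly from Col1a1 and Col1a2. The 7 neutrophil markers summed to 6.45 to 8.5 CPM in UNX, 15.7 to 16.6 in CO-CM and 23.4 to 30.5 in PH-CM, with Mmp8 the largest of them in each group and Ly6g at 0. The 5 lymphocyte markers stayed below 0.2 CPM in sum. The part of these markers in the results below was not tested, and in bulk RNA fewer cells of a type cannot be told apart from less RNA per cell.

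In untreated macrophages the cytosolic genes were far more abundant than the mitochondrial ones. On the RPKM scale (reads per kilobase of exon, scaled to the library total), the cytosolic genes ranged from 13.0 ± 1.38 (SD, n = 3) for Eprs to 115.7 ± 13.7 for Nars, the asparagine enzyme, with a median of 29.5 over the 20 genes. Nars stood apart from the next gene, Gars, the glycine enzyme, at 57.1 ± 6.05. Hars followed at 47.4 ± 1.45. Rars (43.8 ± 1.96), Sars (41.7 ± 2.65) and Iars (41.7 ± 6.47) came next and did not differ beyond their spread, nor did their neighbours below, Aars (36.2 ± 4.24), Vars (34.1 ± 3.12) and Mars (31.9 ± 3.37). The lowest cytosolic genes were Eprs and Yars, which could not be separated (13.0 ± 1.38 and 13.0 ± 1.61). Among the mitochondrial genes Lars2, the leucine enzyme, was the most abundant at 14.2 ± 0.866, followed by Iars2 at 10.9 ± 0.278 and Rars2 at 8.99 ± 0.684. Wars2 (0.998 ± 0.147) and Nars2 (0.988 ± 0.0484) were lowest and did not differ beyond their spread. RPKM depends on the exon length assigned to a gene, and that of Lars2 was 11089 bases.

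The summed level of the cytosolic set was lower in both media than in untreated cells. The 20 cytosolic genes summed to 738.2, 620.1 and 678.7 RPKM in UNX replicates 1, 2 and 3, to 445.5, 392.8 and 434.1 in CO-CM and to 413.0, 384.9 and 397.1 in PH-CM. The UNX libraries lay above all treated libraries, and the CO-CM and PH-CM ranges overlapped. As a share of the UNX mean this left 62.5% ± 4.08 in CO-CM and 58.7% ± 2.07 in PH-CM. The 17 mitochondrial genes summed to 82.3, 77.5 and 81.3 RPKM in UNX, 77.8, 70.3 and 72.1 in CO-CM and 68.8, 63.1 and 65.7 in PH-CM. Their sum in PH-CM lay below every UNX library, while the highest CO-CM library slightly exceeded the lowest UNX library. Between libraries of the same number, the mitochondrial sum was lower in CO-CM than in UNX and the cytosolic sum lower in PH-CM than in CO-CM for each of the 3 numbers. The mitochondrial sum was 91.3% ± 4.84 of UNX in CO-CM and 81.9% ± 3.55 in PH-CM. The ratio of the sums, in which library scaling cancels, was 8.44 ± 0.494 in UNX, 5.78 ± 0.223 in CO-CM and 6.05 ± 0.0488 in PH-CM.

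ATF4, with C/EBP partners, is known to bind a composite motif often written as TTGCATCA, or TGATGCAA on the other strand. The promoter windows of RefSeq (GRCm38.p6, 250 bases before to 50 after the annotated start) included 27 of the 37 genes, 13 cytosolic and 14 mitochondrial. The 8 letters were found on either strand in 4 cytosolic genes, Aars, Iars, Tars and Yars (30.8% of the cytosolic genes with a window), and in 0 of the 14 mitochondrial genes, against 1.03% of all 27025 genes with a window. The motif and its 11 neighbouring bases on each side are shown for Tars, Iars and Yars as examples of the match, and the capitals mark the motif. Each is written 5′ to 3′ on the strand of the gene, and distances are counted from the RefSeq start. GENCODE begins Iars and Yars further upstream, so that both motifs lie farther inside the genes as GENCODE draws them.
Tars, the threonine enzyme, chr15:11399655-11399684, - strand, motif beginning 15 bases before the RefSeq start: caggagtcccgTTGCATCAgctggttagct
Iars, the isoleucine enzyme, chr13:49682126-49682155, + strand, motif beginning at base 8 from the RefSeq start: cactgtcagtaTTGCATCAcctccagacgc
Yars, the tyrosine enzyme, chr4:129189895-129189924, + strand, motif beginning at base 4 from the RefSeq start: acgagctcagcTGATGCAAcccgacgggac

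The windows of Tars and Iars carry the motif in the direction of the gene and Yars carries its complement. With the third letter left free (TTNCATCA or TGATGNAA), Gars also matched, 30 bases before its start, which made 5 of 13 cytosolic genes and 4.51% of all genes. The 4 genes with the full motif changed by -1.57 (Yars) to -0.93 (Aars) on the log2 scale in PH-CM relative to UNX. The 9 cytosolic genes with a window but no full motif ranged from -1.27 (Gars) to 0.16 (Qars), so the ranges overlapped. The 7 cytosolic genes outside the table, Vars and Cars among them, were not examined for the motif. A match of letters is a description and not a measured binding site.

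PH-CM lowered most cytosolic synthetase mRNAs. Calls required an FDR, taken over all genes tested, of 0.05 or less together with a fold change of 1.2 or more in the edgeR quasi-likelihood test. Relative to UNX, 17 of the 20 cytosolic genes were called lower (85%) and none higher, with a median log2 fold change of -0.88, whereas the median of all 11950 genes was 0.0072. Both media changed much of the transcriptome: in PH-CM 63% of all genes tested were called, 31.7% lower and 31.3% higher. The cytosolic genes ranged from -1.60 for Vars to 0.16 for Qars. The plot of changes against UNX shows the cytosolic genes in order, with only Nars, Dars and Qars inside or at the dotted limits in PH-CM.

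**Figure D1:**
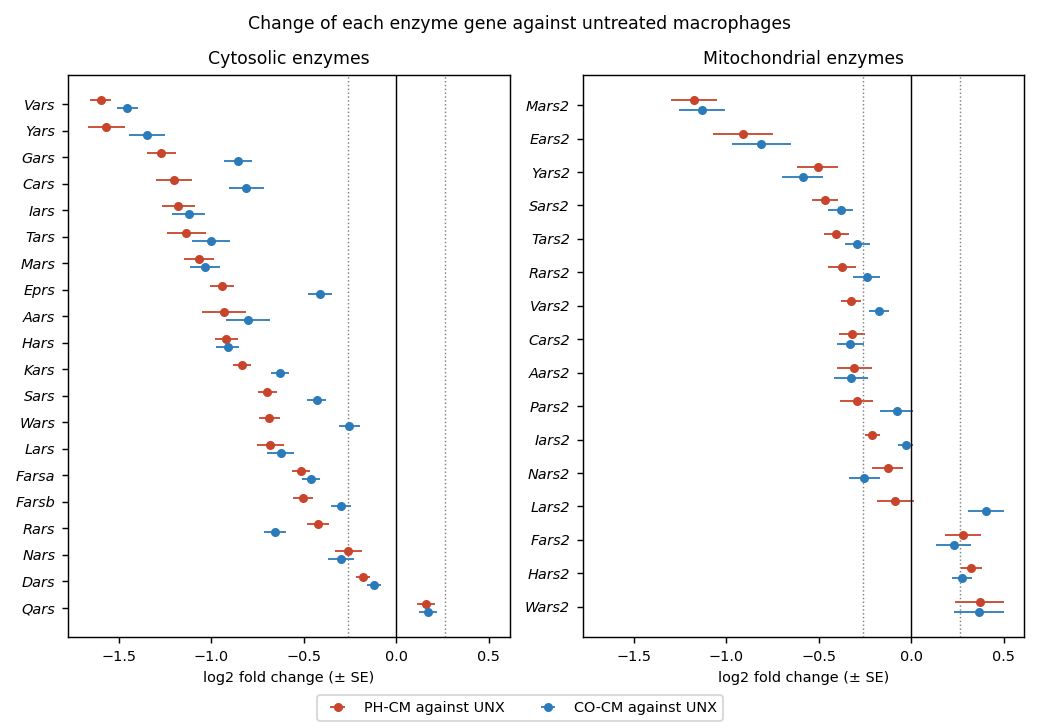
Log2 fold change (x axis, ± SE from the edgeR fit, 3 libraries per group) of the 20 cytosolic and 16 of the 17 mitochondrial synthetase genes in PH-CM (red) and CO-CM (blue), each relative to the same 3 UNX libraries; dotted lines mark a fold change of 1.2. The cytosolic points reach from -1.60 (Vars, PH-CM) to 0.17 (Qars, CO-CM), and most mitochondrial points lie closer to 0, apart from Mars2 and Ears2.

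CO-CM lowered the cytosolic genes in the same number, 17 of 20 lower and none higher, at a smaller median of -0.64, beside a median of 2e-04 for all genes. In CO-CM 57% of all genes were called, 28.9% lower and 28% higher. The counts for the 2 media share the UNX libraries and are not independent of each other. Neither count rested on a single library: leaving out each library in turn gave 17 to 18 cytosolic calls for PH-CM and 15 to 18 for CO-CM.

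The largest fall was in Vars (chr17:35000987-35016322), which encodes the valine enzyme. Vars stood at 37.6, 31.5 and 33.2 RPKM in UNX replicates 1 to 3, at 11.9, 11.4 and 12.2 in CO-CM and at 10.9, 10.8 and 10.7 in PH-CM. No treated library exceeded 12.2 RPKM, and no UNX library fell under 31.5. This was a 3.03-fold fall in PH-CM (log2 -1.60 ± 0.0579 SE, adjusted p = 4.03e-09) and a 2.74-fold fall in CO-CM (log2 -1.46 ± 0.0575, adjusted p = 1.56e-08). Yars (chr4:129189760-129219607), the tyrosine enzyme shown above with the complement of the motif, fell nearly as far. Its RPKM was 14.6, 11.4 and 13.0 in UNX, 5.47, 4.20 and 4.89 in CO-CM and 4.49, 3.86 and 4.24 in PH-CM. The groups treated with medium overlapped each other and lay well under UNX, with log2 changes of -1.57 ± 0.0998 in PH-CM and -1.35 ± 0.0988 in CO-CM.

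Gars (chr6:55038007-55079500), which charges tRNA with glycine in the cytosol and in mitochondria, showed 3 separate levels. Its RPKM was 62.6, 50.6 and 58.0 in UNX, 32.1, 26.9 and 31.1 in CO-CM and 22.7, 22.0 and 23.4 in PH-CM. No 2 groups overlapped, and the log2 change was -1.27 ± 0.0774 in PH-CM and -0.86 ± 0.0765 in CO-CM. Cars (chr7:143557230-143600090), the cysteine enzyme, behaved alike, at 16.0, 13.1 and 14.9 RPKM in UNX, 8.45, 6.68 and 8.78 in CO-CM and 6.45, 5.84 and 6.09 in PH-CM. The CO-CM library nearest to PH-CM was replicate 2, by a small margin, and the log2 change was -1.20 ± 0.0962 in PH-CM and -0.81 ± 0.0951 in CO-CM. Eprs (chr1:185363044-185428360), the fused enzyme for glutamate and proline and a subunit of the complex, also formed 3 levels. It was at 14.4, 11.7 and 12.7 RPKM in UNX, 9.65, 8.75 and 9.41 in CO-CM and 6.72, 6.32 and 6.40 in PH-CM. Eprs changed by -0.94 ± 0.064 in PH-CM and by -0.41 ± 0.0635 in CO-CM on the log2 scale.

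Iars, Tars and Mars fell to about the same level in either medium. Iars (chr13:49682100-49734267) stood at 48.9, 36.5 and 39.6 RPKM in UNX, 19.1, 16.5 and 19.0 in CO-CM and 18.4, 16.9 and 17.7 in PH-CM. Tars (chr15:11382301-11399665) was at 22.4, 17.3 and 19.9 in UNX, 10.5, 8.0 and 9.88 in CO-CM and 9.48, 7.99 and 8.57 in PH-CM. Mars (chr10:127296221-127311786), the methionine enzyme that also charges initiator tRNA, was at 35.0, 28.3 and 32.4 in UNX, 15.9, 13.1 and 15.5 in CO-CM and 15.6, 13.8 and 14.4 in PH-CM. For each of the 3 genes the treated groups overlapped each other and lay below UNX. In PH-CM they changed by -1.18 ± 0.0913 (Iars), -1.14 ± 0.105 (Tars) and -1.07 ± 0.0814 (Mars), and in CO-CM by -1.12 ± 0.0911, -1.002 ± 0.104 and -1.03 ± 0.0812. The plot of RPKM by library shows these 8 cytosolic genes with 3 mitochondrial ones.

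**Figure D2:**
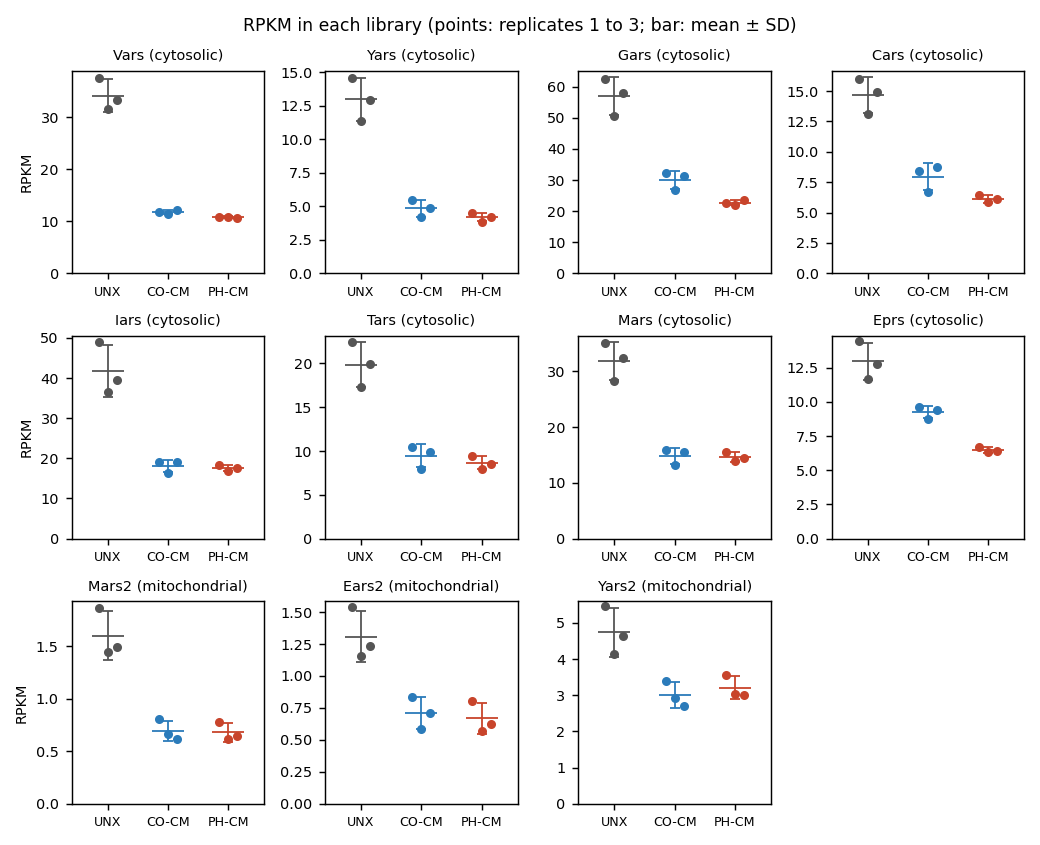
RPKM (y axis, from 0) of 8 cytosolic and 3 mitochondrial synthetase genes in each library; points are replicates 1 to 3 from left to right in UNX, CO-CM and PH-CM, and bars give mean ± SD. UNX lies above both treated groups in all 11 panels, and Gars, Cars and Eprs show a further step from CO-CM to PH-CM.

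The other cytosolic genes called lower in PH-CM were Aars (-0.93 ± 0.119), Hars (-0.92 ± 0.0621), Kars (-0.84 ± 0.0492), Sars (-0.70 ± 0.0502), Wars (-0.69 ± 0.0578), Lars (-0.68 ± 0.0713), the phenylalanine subunits Farsa (-0.52 ± 0.0475) and Farsb (-0.51 ± 0.0541), and Rars (-0.42 ± 0.0614). The subunits of the phenylalanine enzyme therefore changed by nearly the same amount in PH-CM. In CO-CM Farsa changed by -0.46 ± 0.0475 and Farsb by -0.30 ± 0.0538, and the Farsb call was lost without CO-CM replicate 2 (log2 -0.26). The remaining genes changed in CO-CM by -0.91 (Hars), -0.80 (Aars), -0.66 (Rars), -0.63 (Kars and Lars) and -0.43 (Sars), all called, while Wars, the tryptophan enzyme, missed the fold threshold at -0.25 ± 0.0573 and passed it without UNX replicate 2 (-0.32), CO-CM replicate 1 (-0.27) or CO-CM replicate 3 (-0.26).

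Nars, Dars and Qars stood aside from the rest of the cytosolic set, and were singled out after their values were seen. Nars, the most abundant of all, was at 130.1, 102.9 and 113.9 RPKM in UNX, 95.6, 82.8 and 90.1 in CO-CM and 95.6, 90.2 and 92.7 in PH-CM. It lay just to one side of the fold threshold in each medium, at -0.26 ± 0.0723 in PH-CM (not called) and -0.30 ± 0.0723 in CO-CM (called). Leaving out UNX replicate 2, UNX replicate 3 or PH-CM replicate 1 made Nars pass in PH-CM (-0.34, -0.27 and -0.27), and leaving out UNX replicate 1 or CO-CM replicate 2 ended its call in CO-CM (-0.23 and -0.26). Dars, the aspartate enzyme, held 22.4 to 23.7 RPKM in UNX, 19.9 to 20.3 in CO-CM and 19.3 to 19.6 in PH-CM, differences of -0.12 ± 0.0388 and -0.18 ± 0.0388 that passed the FDR but not the fold threshold. Qars, the glutamine enzyme, was the only cytosolic gene with a positive log2 change relative to UNX in these fits, at 15.01 to 15.8 RPKM in UNX, 16.0 to 17.2 in CO-CM and 16.2 to 16.9 in PH-CM. Its changes of 0.17 ± 0.0487 and 0.16 ± 0.0488 were likewise under 1.2-fold. Qars has no mitochondrial partner, since mitochondria make glutaminyl-tRNA by converting glutamyl-tRNA with the amidotransferase of Gatb, Gatc and Qrsl1.

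Dars and Qars are both subunits of the multi-synthetase complex, which also holds Eprs, Iars, Kars, Lars, Mars and Rars. In a grouping made after the values were seen, 6 of these 8 enzymes and 11 of the 12 other cytosolic genes were called lower in PH-CM, with medians of -0.76 and -0.92. The counts in CO-CM were the same, with medians of -0.63 and -0.81. Among all genes tested 31.7% were called lower in PH-CM and 28.9% in CO-CM. The complex genes spread from -1.18 (Iars) to 0.16 (Qars) in PH-CM. Of its 3 scaffold genes, Eef1e1 and Aimp2 were called lower in both media (-1.60 ± 0.149 and -1.18 ± 0.0798 in PH-CM, -1.29 ± 0.147 and -0.83 ± 0.0785 in CO-CM), and Aimp1 was called lower in PH-CM (-0.34 ± 0.054) but not in CO-CM (-0.21 ± 0.0538). Tarsl2, a further cytosolic threonine enzyme whose symbol the rule does not take, held 2.26 to 2.27 RPKM in UNX, 1.11 to 1.18 in CO-CM and 0.813 to 0.833 in PH-CM, a log2 change of -1.40 ± 0.0695 in PH-CM and -0.91 ± 0.0678 in CO-CM.

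The mitochondrial enzymes changed less and in both directions. Relative to UNX, PH-CM lowered 11 of the 17 (64.7%) and raised 3, with a median log2 change of -0.32, and CO-CM lowered 7 (41.2%) and raised 3, with a median of -0.24. Beside these stand 31.7% lower and 31.3% higher among all genes in PH-CM and 28.9% and 28% in CO-CM, where 57% of all genes were called in either direction, so the number of mitochondrial calls in CO-CM was near that of all genes. These counts were less stable than the cytosolic ones. Without PH-CM replicate 3, 9 instead of 14 mitochondrial genes were called in PH-CM, and without CO-CM replicate 2, 6 instead of 10 in CO-CM. With library size alone in place of TMM factors, PH-CM lowered 12 and raised 1, and CO-CM lowered 10 and raised 1. With upper-quartile factors CO-CM lowered 4 and raised 4.

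Mars2 and Ears2 were the exceptions, with changes as large as those of the cytosolic set. Mars2 (chr1:55237177-55248470), the mitochondrial methionine enzyme, is encoded by a single exon. Its RPKM was 1.86, 1.45 and 1.49 in UNX, 0.802, 0.667 and 0.613 in CO-CM and 0.778, 0.616 and 0.641 in PH-CM. The treated groups overlapped each other, with no library above 0.802 RPKM, and the log2 change was -1.18 ± 0.124 in PH-CM (adjusted p = 9.4e-06) and -1.13 ± 0.123 in CO-CM (adjusted p = 1.59e-05). Ears2 (chr7:122037213-122067263), the mitochondrial glutamate enzyme, had the fewest reads of the 37 genes, 2909 over all libraries. It was at 1.54, 1.15 and 1.23 RPKM in UNX, 0.835, 0.586 and 0.709 in CO-CM and 0.806, 0.572 and 0.627 in PH-CM. Its changes of -0.91 ± 0.162 and -0.81 ± 0.161 carried the largest standard errors of the set.

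Yars2 fell by a similar amount in either medium. Yars2 (chr16:16302965-16309640), the mitochondrial tyrosine enzyme, was at 5.46, 4.13 and 4.63 RPKM in UNX, 3.40, 2.92 and 2.71 in CO-CM and 3.57, 3.04 and 3.02 in PH-CM. It was called lower in both, at -0.50 ± 0.111 in PH-CM and -0.59 ± 0.111 in CO-CM, with treated groups that overlapped.

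The other mitochondrial genes called lower in PH-CM were Sars2 (-0.47 ± 0.0684), Tars2 (-0.40 ± 0.068), Rars2 (-0.37 ± 0.0745), Vars2 (-0.32 ± 0.0542), Cars2 (-0.32 ± 0.072), Aars2 (-0.31 ± 0.0948) and Pars2 (-0.29 ± 0.089). Most of these lay close to the fold threshold of 0.263 on the log2 scale. The calls of Aars2, Cars2 and Pars2 were lost without PH-CM replicate 3 (-0.27, -0.26 and -0.25), and that of Aars2 also without PH-CM replicate 2 (-0.24). Iars2 (-0.21 ± 0.0404) passed the FDR but not the fold threshold in PH-CM, and Nars2 (-0.13 ± 0.0845) passed neither. In CO-CM, Sars2 (-0.38 ± 0.0681), Cars2 (-0.33 ± 0.0719), Aars2 (-0.33 ± 0.0946) and Tars2 (-0.29 ± 0.0677) were called lower, Aars2 and Tars2 not without CO-CM replicate 2 (-0.26 and -0.24). Nars2, Rars2, Vars2, Pars2 and Iars2 were not called in CO-CM, at -0.25, -0.24, -0.18, -0.08 and -0.03. Nars2 passed without UNX replicate 2 or 3 or CO-CM replicate 3 (-0.27, -0.30 and -0.30) and Rars2 without UNX replicate 2 or CO-CM replicate 3 (-0.30 and -0.30).

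Hars2, Fars2 and Wars2, for histidine, phenylalanine and tryptophan, were called higher in PH-CM, all by small amounts. Hars2 was at 5.38, 5.15 and 4.94 RPKM in UNX, 6.12, 5.99 and 5.73 in CO-CM and 6.01, 6.40 and 6.22 in PH-CM. The UNX libraries lay below all treated libraries, with log2 changes of 0.33 ± 0.0549 in PH-CM and 0.28 ± 0.0548 in CO-CM, where the call was lost without UNX replicate 3 (0.23) or CO-CM replicate 2 (0.26). Fars2 changed by 0.28 ± 0.0967 in PH-CM and by 0.23 ± 0.0966 in CO-CM, where it was not called, and without CO-CM replicate 1 it was (0.30). Its PH-CM call was lost without UNX replicate 1 or 3 (0.23 and 0.27) or without PH-CM replicate 2 or 3 (0.28 and 0.22). Wars2 changed by 0.37 ± 0.133 in both media. Its PH-CM libraries (1.08 to 1.41 RPKM) overlapped those of UNX (0.828 to 1.10), while its CO-CM libraries lay above UNX. The PH-CM call of Wars2 was lost without UNX replicate 2 (0.25) or PH-CM replicate 2 or 3 (0.27 and 0.38). Its CO-CM call was lost without UNX replicate 2 (0.24) or CO-CM replicate 2 (0.32). Hars2 shares a start region with Hars, transcribed the other way, and while Hars2 rose Hars fell from 45.8 to 48.5 RPKM in UNX to 22.2 to 26.3 in CO-CM and 23.0 to 25.2 in PH-CM.

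Lars2 was the mitochondrial gene whose change depended most on the medium. It stood at 13.3, 14.2 and 15.1 RPKM in UNX, 20.6, 17.2 and 16.0 in CO-CM and 14.2, 11.1 and 13.2 in PH-CM. CO-CM lay above both other groups, and PH-CM overlapped UNX. The log2 change was 0.41 ± 0.0988 in CO-CM (adjusted p = 0.00395) and -0.08 ± 0.0988 in PH-CM (adjusted p = 0.453). Replicate 1 was the highest CO-CM library, and with replicate 1 of every group left out, an alternative added after seeing the data, the CO-CM change was 0.25 and no longer called.

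Each cytosolic gene was next set against the mitochondrial gene for the same amino acid within each library. There were 18 such pairs, in which Eprs and Fars2 each appear 2 times, and the log2 ratio of the RPKM values does not depend on how a library was scaled. The ratio of cytosolic to mitochondrial level was lower than in UNX for 16 of 18 pairs in PH-CM and 15 of 18 in CO-CM, with median differences of -0.69 and -0.51. These counts are of signs alone and include differences near 0 with overlapping libraries, such as Eprs to Ears2 (-0.02) and Rars to Rars2 (-0.05) in PH-CM and Sars to Sars2 (-0.05) in CO-CM. With 3 libraries against 3, a two-sided exact permutation test cannot give a p below 0.1 for any pair. For valine, Vars to Vars2, the log2 ratio was 3.42, 3.17 and 3.22 in UNX, 1.94, 1.95 and 2.08 in CO-CM and 1.94, 2.03 and 2.03 in PH-CM. The mean ratio fell from 9.66 in UNX to 3.98 and 3.99 in the media, since Vars2 changed by only -0.32 in PH-CM and -0.18 in CO-CM (exact permutation p = 0.1 for either). Histidine showed nearly the same shift, from a mean ratio of 9.2 to 4.03 in CO-CM and 3.88 in PH-CM. For leucine the ratio of Lars to Lars2 was 2.02 in UNX, 0.991 in CO-CM and 1.34 in PH-CM, with all treated libraries below UNX.

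**Figure D3:**
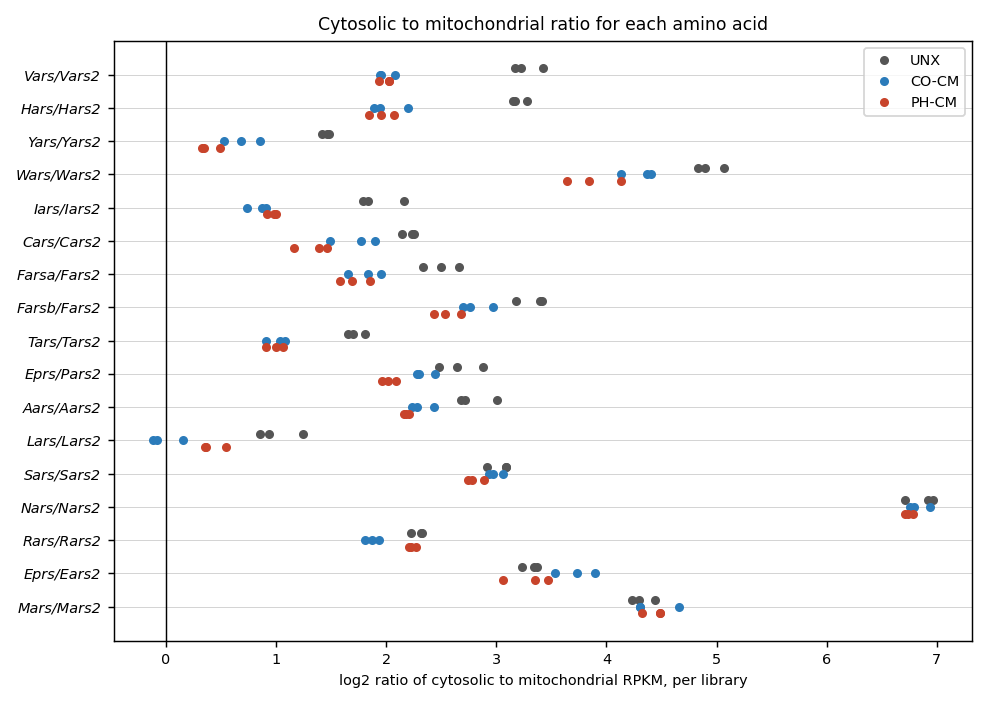
Log2 ratio of cytosolic to mitochondrial RPKM (x axis) for 17 amino acid pairs, 1 point per library in UNX (gray), CO-CM (blue) and PH-CM (red), ordered by the difference between PH-CM and UNX. For Vars/Vars2 the UNX points lie between 3.17 and 3.42 and the treated points between 1.94 and 2.08, while for Mars/Mars2 the groups overlap.

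Not all amino acids followed. For methionine the ratio of Mars to Mars2 stayed at 20.0 in UNX, 21.4 in CO-CM and 21.6 in PH-CM with overlapping libraries, as both genes fell by more than 2-fold. For asparagine the ratio was 117, 113 and 107, also with overlap. For glutamate the ratio of Eprs to Ears2 was 9.95 in UNX, 13.2 in CO-CM, where every library lay above UNX, and 9.8 in PH-CM, which overlapped UNX.

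The 2 media were then compared directly, to ask which synthetase genes differ between these pooled media. With pooled media the libraries give no spread between calves, so a dependence on the disease of the animals was not tested. Relative to CO-CM, PH-CM lowered 5 of 20 cytosolic genes (25%) and 2 of 17 mitochondrial genes (11.8%) and raised none, with median log2 changes of -0.13 and -0.09. Among all genes tested 27.1% were called, 15% lower and 12.2% higher, with a median of -0.0064. The cytosolic genes called were Eprs (-0.53 ± 0.0638, adjusted p = 0.000125), Wars (-0.43 ± 0.0577, adjusted p = 0.000227), Gars (-0.42 ± 0.0767, adjusted p = 0.0018), Cars (-0.39 ± 0.0958, adjusted p = 0.00883) and Sars (-0.27 ± 0.0501, adjusted p = 0.002). Wars was at 25.5, 22.6 and 24.4 RPKM in CO-CM and 19.0, 17.6 and 17.6 in PH-CM, with no overlap. Sars sat at the fold threshold and its call was lost under 10 alternatives with that threshold, among them leaving out any UNX library (-0.26 each), CO-CM replicate 1 (-0.26), CO-CM replicate 3 (-0.24) or PH-CM replicate 3 (-0.25).

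**Figure D4:**
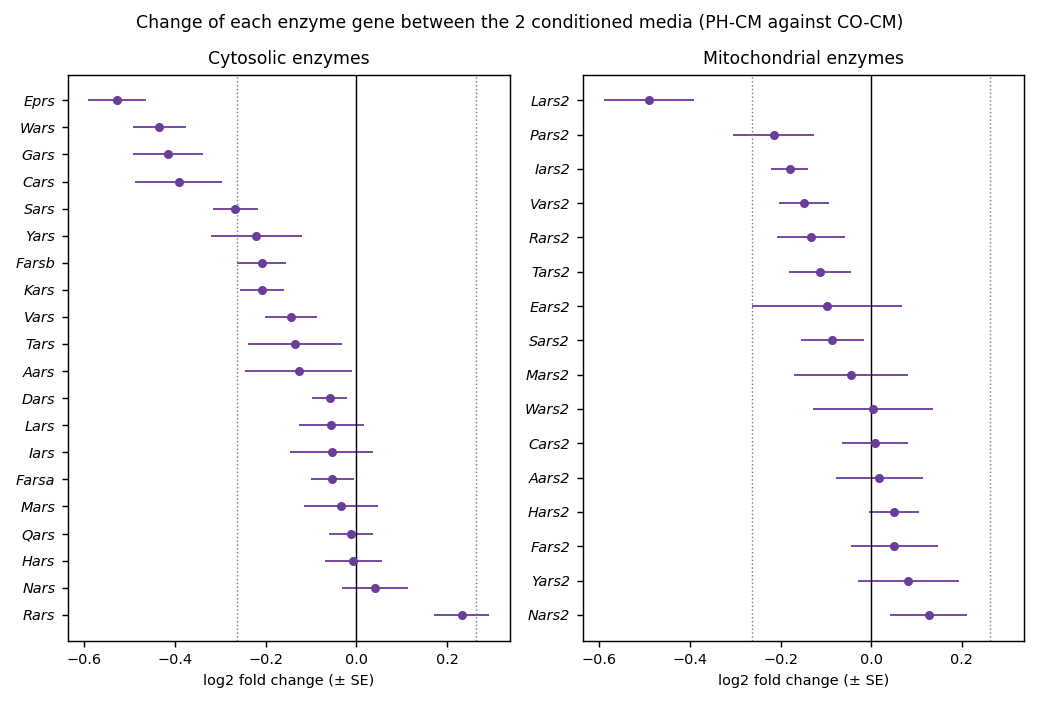
Log2 fold change (x axis, ± SE, 3 libraries per group) of 36 synthetase genes in PH-CM relative to CO-CM, sorted within the cytosolic and mitochondrial sets; dotted lines mark a fold change of 1.2. Eprs (-0.53) and Lars2 (-0.49) lie farthest below 0, and Rars (0.23) farthest above without reaching the limit.

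Lars2 had the largest change among the mitochondrial genes (-0.49 ± 0.099, adjusted p = 0.00304). Farsb (-0.21 ± 0.0541), Kars (-0.21 ± 0.0491), Rars (0.23 ± 0.0615) and the mitochondrial Iars2 (-0.18 ± 0.0405) passed the FDR but not the fold threshold. Rars, the arginine enzyme, was the cytosolic gene with the largest positive value, at 28.1, 24.3 and 27.2 RPKM in CO-CM and 32.9, 28.7 and 32.6 in PH-CM, and it was called higher without PH-CM replicate 2 (0.29). Yars was called lower without CO-CM replicate 2 (-0.30) and not otherwise (-0.22 ± 0.0994). For Hars (-0.01 ± 0.0621), Qars (-0.01 ± 0.0487) and Mars (-0.03 ± 0.0812) no difference between the media was detectable within these standard errors.

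Genes that act before or after tRNA charging were described from lists of known function. Xpot, which exports tRNA from the nucleus, was called lower in both media (-0.65 ± 0.0907 in PH-CM, -0.67 ± 0.0907 in CO-CM), whereas Trnt1, which adds the CCA end to tRNA, was not (-0.07 and 0.00). Of the 5 cytosolic elongation factors, which bring charged tRNA to the ribosome or move it along, 4 were lower in PH-CM and 3 in CO-CM, beside 31.7% and 28.9% of all genes. Eef1g (-1.18 ± 0.0537 in PH-CM) and Eef1d (-0.82 ± 0.0533), parts of the exchange factor of Eef1a1, fell most, and Eef1a1 itself changed by -0.11 ± 0.0538. Of the 8 mitochondrial translation factors 4 were lower in either medium, namely Tsfm (-0.77 ± 0.0875 in PH-CM), Gfm1 (-0.75 ± 0.0603), Mtrf1l (-0.48 ± 0.096) and Tufm (-0.44 ± 0.0523), again beside 31.7% and 28.9% of all genes. Qrsl1, a subunit of the amidotransferase that stands in for a mitochondrial glutamine enzyme, was lower in both media (-0.81 ± 0.112 in PH-CM, -0.61 ± 0.111 in CO-CM), while Gatb and Gatc were not called.

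Atf4 and most of the other known ATF4 targets were lower in both media as well. Atf4 mRNA was at 199.1, 177.4 and 206.1 RPKM in UNX, 128.2, 98.3 and 133.8 in CO-CM and 96.8, 87.5 and 100.6 in PH-CM. It was called lower in PH-CM (-0.97 ± 0.104), in CO-CM (-0.63 ± 0.103) and in PH-CM relative to CO-CM (-0.35 ± 0.103), the last with overlapping libraries. Atf4 is controlled largely at translation, which mRNA does not report. Of 10 further ATF4 targets, 7 were called lower and 3 higher in PH-CM, and 7 lower and 1 higher in CO-CM, beside 31.7% lower and 31.3% higher of all genes in PH-CM and 28.9% and 28% in CO-CM. The 7 lower in PH-CM were Asns, Chac1, Psat1, Phgdh, Slc7a5, Mthfd2 and Shmt2, genes of asparagine, serine and one-carbon synthesis, glutathione breakdown and amino acid import. Chac1 (-4.21 ± 0.349), Slc7a5 (-3.92 ± 0.275) and Psat1 (-3.49 ± 0.153) had the largest falls, well beyond any synthetase. The list did not move as a whole: Slc7a11, the cystine importer, was at 0.167, 0.111 and 0.123 RPKM in UNX, 0.187, 0.164 and 0.169 in CO-CM and 3.22, 2.56 and 3.19 in PH-CM (log2 4.56 ± 0.139), and Slc3a2 and Sesn2 were also higher in PH-CM.

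**Figure D5:**
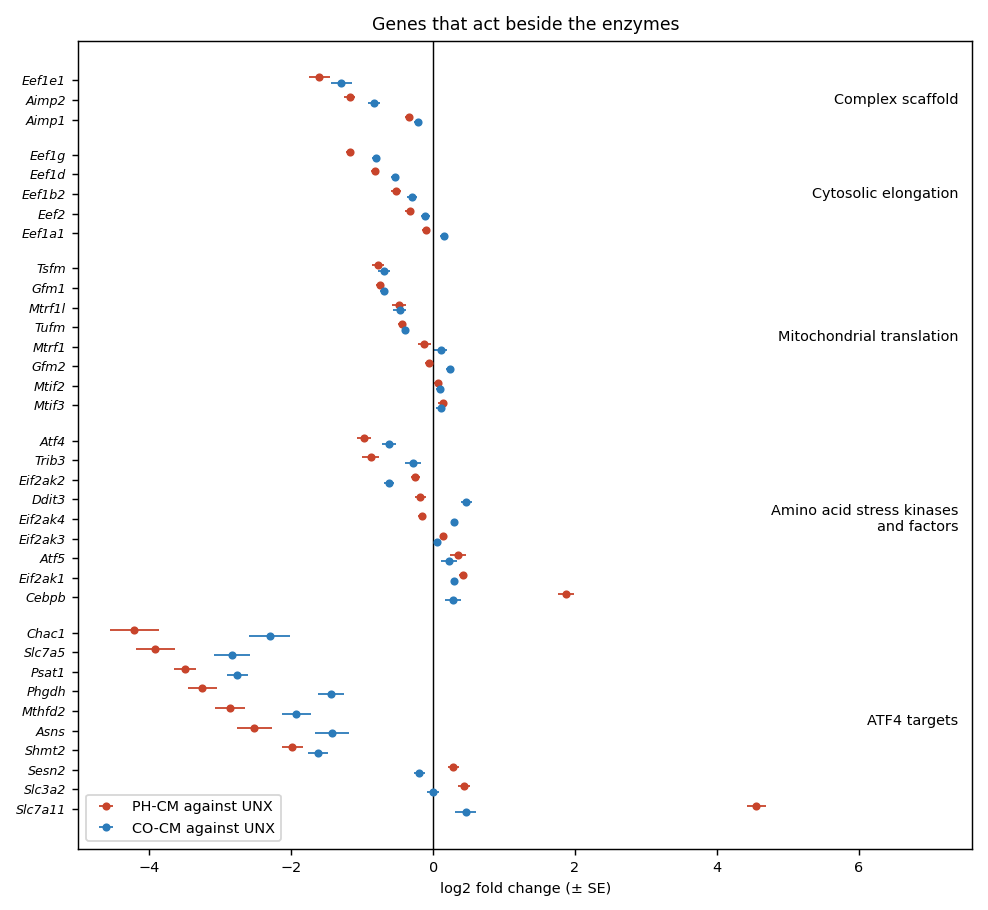
Log2 fold change (x axis, ± SE, 3 libraries per group) in PH-CM (red) and CO-CM (blue) relative to UNX of genes that act beside the synthetases, grouped by list. Most ATF4 targets lie far below 0, with Chac1 at -4.21 in PH-CM, while Slc7a11 lies at 4.56 in PH-CM and 0.46 in CO-CM.

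Of 9 listed stress kinases and factors, not all of them specific to amino acid shortage, 2 were called lower and 3 higher in PH-CM. In CO-CM 3 were called lower and 4 higher. Of all genes 31.7% were lower and 31.3% higher in PH-CM, and 28.9% and 28% in CO-CM. Trib3, an ATF4-induced pseudokinase, was lower in PH-CM (-0.88 ± 0.119) and Cebpb, a C/EBP partner of ATF4, was higher (1.87 ± 0.112). Other C/EBP genes were not examined. Atf5 and Ddit3, also known ATF4 targets, were called higher in PH-CM (0.34 ± 0.113) and in CO-CM (0.47 ± 0.0747), respectively. Eif2ak4 (GCN2), the kinase that senses uncharged tRNA, was called higher in CO-CM (0.29 ± 0.0469) and changed by -0.16 ± 0.0471 in PH-CM, and the difference between the media was called (-0.46 ± 0.0471).

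Some of the counted reads are less certain than others. Exons of 14 of the 37 genes overlap exons of another gene in the GENCODE annotation of GRCm38. Strand was not used in counting, so reads in bases shared in the annotation used for counting are left uncounted or cannot be assigned. That annotation can differ from GENCODE: the exon length implied by the deposited RPKM of Hars is 1987 bases, against 2447 in GENCODE. The overlaps given here may therefore differ from those met in counting. The overlap exceeded 10% of exon bases in 4 genes, among them Iars2 (24.2%, with Rab3gap2), Aars (15.1%, with Exosc6) and Fars2 (10.7%, with Nrn1 and Lyrm4). Iars has a pseudogene copy, Gm4849, alike at 96.0% over 1656 bases and with 40 reads in all, and Vars has Gm14780, alike at 90.4% over 333 bases and with 16 reads.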

How the data were processed

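RNA-Seq of 9 libraries, 3 each of UNX, CO-CM and PH-CM macrophages, was used. Groups and replicate numbers come from the titles in the labels. FastQC, AfterQC for trimming, STAR on GRCm38 and featureCounts 1.6.2 over exons were the authors' tools. The raw counts deposited are whole numbers of reads for a gene. No pair or strand option is stated, so each mate counts on its own. The RPKM values deposited by the authors are these counts scaled to exon length and library total. The authors' comparison tables, which hold log2 fold changes, mean log2 CPM, p-values and FDR, were not used.

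Genes needed a CPM above 1 in 3 or more libraries. TMM factors were used, and counts were fitted in edgeR 4.0.16 (R 4.3.3) with the quasi-likelihood test, all 9 libraries in a single model with a mean per group. P-values were adjusted by Benjamini-Hochberg over 11950 genes, and SE is the log2 fold change over the root of F. The fit was tested on simulated data. Replicate pairs differed by more than sampling noise (chi-square of at least 10.61 per gene). Same-numbered libraries deviated together in all 9 pairs across groups (r 0.276 to 0.484 over genes), which was read as pairing by number, and a fit with the number as a block is among the alternatives, as are DESeq2 1.42.0, other scalings, filters and samples. Pseudogene copies of at least 90% identity were found with BLAST 2.17.0.

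Members and lists were chosen with earlier results of these data known. Values in every library are given for the 8 cytosolic and 4 mitochondrial enzymes with the largest called change in any comparison, and for up to 4 called genes of other lists; further genes shown by library were chosen after their values were seen. 1 enzyme, counted among the members, is not reported here by name. Sequences of promoters are from RefSeq (GRCm38.p6) and gene positions from GENCODE on the same build. Promoters of 10 of the enzymes were not analysed here.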

Additional observations from a re-analysis of the deposited data

How the results depend on the processing

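Over 22 alternatives and 37 enzymes, 765 of 814 values against UNX stayed called or not called as in the main fit in PH-CM. The same held for 743 of 814 in CO-CM and 791 of 814 between the media, and no called value reversed. Direction was not counted for values that were not called, and some changed sign, such as Iars2 in CO-CM relative to UNX (-0.099 to 0.036). Requiring a fold change of at least 2 left 7 cytosolic and 1 mitochondrial calls in PH-CM, 5 and 1 in CO-CM, and 0 and 0 between the media. With no fold threshold, 8 of the 20 cytosolic genes were called between the media, beside 4531 of all 11950 genes. Shares of all genes at a fold of 2 were not counted. Leaving out each library in turn gave 9 to 14 mitochondrial calls in PH-CM and 6 to 12 in CO-CM. The replicate block changed no enzyme's call, and left 17 cytosolic and 14 mitochondrial calls in PH-CM. Scaled by TMM, the summed cytosolic level in PH-CM was 61% of UNX in place of 58.7%, because UNX libraries had the larger TMM factors. No scaling moved the median of all genes by 0.1. Most of the scalings centre the bulk of genes, so this stability is no check on a change in total RNA. Ears2, with 2909 reads in all, had the largest standard errors.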

Other observations

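Wars is known as an interferon-response gene besides its role in charging, so other genes of that response were examined. Of 8 listed genes, 7 passed the filter and Ido1, with 4 reads in all, did not. In CO-CM relative to UNX, 4 were called lower and 1 higher, with Ifit3 (-1.72 ± 0.245), Ifit1 (-1.35 ± 0.281) and Isg15 (-1.01 ± 0.171), antiviral effectors, lower and Irf1 higher (0.56 ± 0.0707). In PH-CM 3 were lower and 1 higher. Among all genes 28.9% were lower and 28% higher in CO-CM, and 31.7% and 31.3% in PH-CM. Between the media none was called lower and Ifit1 (1.23 ± 0.282), Ifit3 (0.78 ± 0.249) and Isg15 (0.51 ± 0.173) were called higher in PH-CM. Of all genes 15% were lower and 12.2% higher in that comparison. The direction of these 3 genes was opposite to that of Wars, which was lower in PH-CM at -0.43 ± 0.0577.

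Of the deacylases that remove wrongly attached amino acids from tRNA, Aarsd1 had 211 reads and was below the filter. Prorsd1 was called higher in both media (0.50 ± 0.105 in PH-CM and 0.62 ± 0.104 in CO-CM), against the direction of most synthetases. Dtd1, which removes D-amino acids, was lower in PH-CM relative to CO-CM (-0.67 ± 0.0971), and Dtd2 was not called in any of the 3 comparisons.

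Within each group, replicate 2 held the lowest median of the cytosolic synthetases, at -0.12 (UNX), -0.09 (CO-CM) and -0.04 (PH-CM) on the log2 scale relative to the group mean, with 1, 2 and 6 of the 20 genes above that mean. The medians of all genes in these libraries lay within 0.0057 of 0.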
